A study of Mus musculus and Homo sapiens with 41 samples.

Results

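The genes described here are 32 genes of amino acid handling, taken by gene symbol from a list of cytosolic tRNA synthetases and of genes that cells induce when amino acids run short. All 32 were found among the 53756 genes of the GMP RNA-seq table and among the 13238 genes of the 416b RNA-seq table. Of these, 20 are tRNA synthetases, 6 are serine and asparagine synthesis genes, 3 are amino acid transport genes and 3 are stress effector genes. All 32 passed the filters on low values, which left 20531 genes in GMPs and 11836 genes in 416b cells.

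The study examined the loss of PLZF in granulocyte-monocyte progenitors and its gain in a myeloid cell line. PLZF is the zinc finger transcription factor encoded by Zbtb16. GMPs (Lineage-, C-kit+, Sca-1-, Cd34+, FcγR+) were sorted from the bone marrow of lethally irradiated C57BL/6 Cd45-1 hosts rebuilt with C57BL/6 Cd45-2 marrow that was wild type (WT) or homozygous for the luxoid loss-of-function allele, Zbtb16lu/lu. Both genotypes had therefore passed through transplantation, the GMPs were sorted some months later from a gate of Cd45+ cells, and the age of the animals is not given in the sources used here. The GMP table holds 2 libraries per genotype, called here WT A and WT B, and Zbtb16lu/lu C and Zbtb16lu/lu D, and values are always given in this order. The column names carry numbers that read as dates and are called dates here, and WT A and Zbtb16lu/lu D have the same one. What these dates record, and whether a library is 1 animal or a pool, is not given in the sources used here, so a p-value measures only the spread between these libraries. 416b is a Cd34+ mouse myeloid progenitor line that itself holds some PLZF. It was transduced with a lentivirus for PLZF-Flag or with the Empty vector, and 1 library was made per condition.

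Aminoacyl-tRNA synthetases join each amino acid to its tRNA and so set the supply for protein synthesis. They fall into 2 structural classes, and several of them sit in one complex on the scaffold proteins Aimp1, Aimp2 and Eef1e1. When an amino acid is scarce, uncharged tRNA activates the kinase Gcn2 (gene Eif2ak4), which phosphorylates eIF2α (gene Eif2s1). Translation of the factor ATF4 then increases, and ATF4 with C/EBP partners switches on synthetase genes, serine and asparagine synthesis, amino acid transporters and feedback genes such as Chac1, Sesn2 and Ddit4. Marrow progenitors divide fast and make large amounts of granule protein, and so use amino acids heavily.

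The element through which ATF4 and its C/EBP partners act reads TGATGNAA. It is shown here because it is the regulatory sequence best known for genes of this kind. Of the 32 members, 23 had a promoter window in the RefSeq table for GRCm38.p6, running from 250 bases before to 50 bases after the gene's start. Nars, Lars, Slc7a5, Vars, Cars, Mars, Rars, Hars and Wars had none. The element was found on either strand in 8 of the 23 windows (34.8%), against 3.97% of all 32851 windows of the same length. Capitals mark the element in each 30-base stretch, which is written on the strand on which the element reads as above.

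Chac1, chr2:119351038-119351067, minus strand: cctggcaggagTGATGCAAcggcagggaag
Slc7a11, chr3:50443642-50443671, plus strand: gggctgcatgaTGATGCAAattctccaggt
Slc7a11, chr3:50443661-50443690, minus strand: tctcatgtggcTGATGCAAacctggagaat
Asns, chr6:7693214-7693243, minus strand: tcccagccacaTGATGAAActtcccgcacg
Gars, chr6:55037960-55037989, minus strand: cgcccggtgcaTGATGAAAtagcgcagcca
Iars, chr13:49682126-49682155, minus strand: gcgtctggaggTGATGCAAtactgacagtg
Tars, chr15:11399655-11399684, plus strand: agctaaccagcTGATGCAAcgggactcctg
Yars, chr4:129189895-129189924, plus strand: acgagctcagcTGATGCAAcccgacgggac

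The element thus occurred in 5 of the 12 synthetase genes with a window, in 1 of 6 serine and asparagine synthesis genes, in 1 of 2 transport genes and in 1 of 3 stress effector genes. Aars, whose sequence is not printed, and Slc7a11 held it at 2 places, and in Slc7a11 the 2 elements lie on opposite strands within overlapping stretches. In Aars, Iars and Yars an element began after the annotated start, at 10, 8 and 4 bases, inside the transcript, and the remaining elements lay before the start. Only the form with C in the open position was found in 6 of the 23 genes and in 0.895% of all windows. None of the 14 mitochondrial synthetase genes with a window, which encode the separate enzymes of mitochondrial translation, held the element. A match is a description of these letters and says nothing of binding.

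Levels of different genes were compared per kb of exon, as normalized counts (reads divided by the library's size factor). In WT GMPs, Nars, for asparagine, stood highest of the members, with 2988 ± 380 normalized counts per kb (mean ± SD, n = 2 libraries). Gars, for glycine, followed with 2838 ± 470 and Kars, for lysine, with 2613 ± 437. Phgdh, which starts serine synthesis from a glycolytic intermediate, came next at 2483 ± 571 per kb, so a gene of serine synthesis stood among the most abundant synthetases. At the other end stood Sesn2, an inhibitor of mTORC1 signalling, at 86.6 ± 24.0 per kb, Ddit4, another inhibitor of mTORC1, at 45.5 ± 3.75, and Chac1, which degrades glutathione, at 31.3 ± 17.6. Slc7a11, the cystine importer, was lowest, with 15.3 ± 6.20 normalized counts per kb. In all, 25 of the 32 members were at or above the percentile 75 of the tested genes by level per kb. Of the 31 pairs of neighbours in this order, 27 had overlapping ranges over the WT libraries. The order of those neighbours was not resolved by range. The ranges did not overlap between Lars and Slc7a5, Asns and Cars, Psph and Sesn2, and Sesn2 and Ddit4. Genes farther apart could also be separate, the lowest value of Nars (2719) being above the highest of Dars (2358).

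In 416b cells with the Empty vector, Shmt2, the mitochondrial enzyme that turns serine into glycine, led the members with 6976 normalized counts per kb. Gars followed with 4314 and Slc7a5, the light chain of the transporter for large neutral amino acids, with 3841. Its heavy chain Slc3a2 had 3218 normalized counts per kb. Asns, the enzyme that makes asparagine, held place 26 of 32 in WT GMPs, with 542 ± 83.6 per kb, and place 8 in 416b cells, with 2363. Ddit4 stood at 1042 per kb and Chac1 at 200.4, both in a single library. The GMP and 416b tables were normalized separately and made with different kits, so these orders are given side by side and no level was compared between them.

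**Figure D1:**
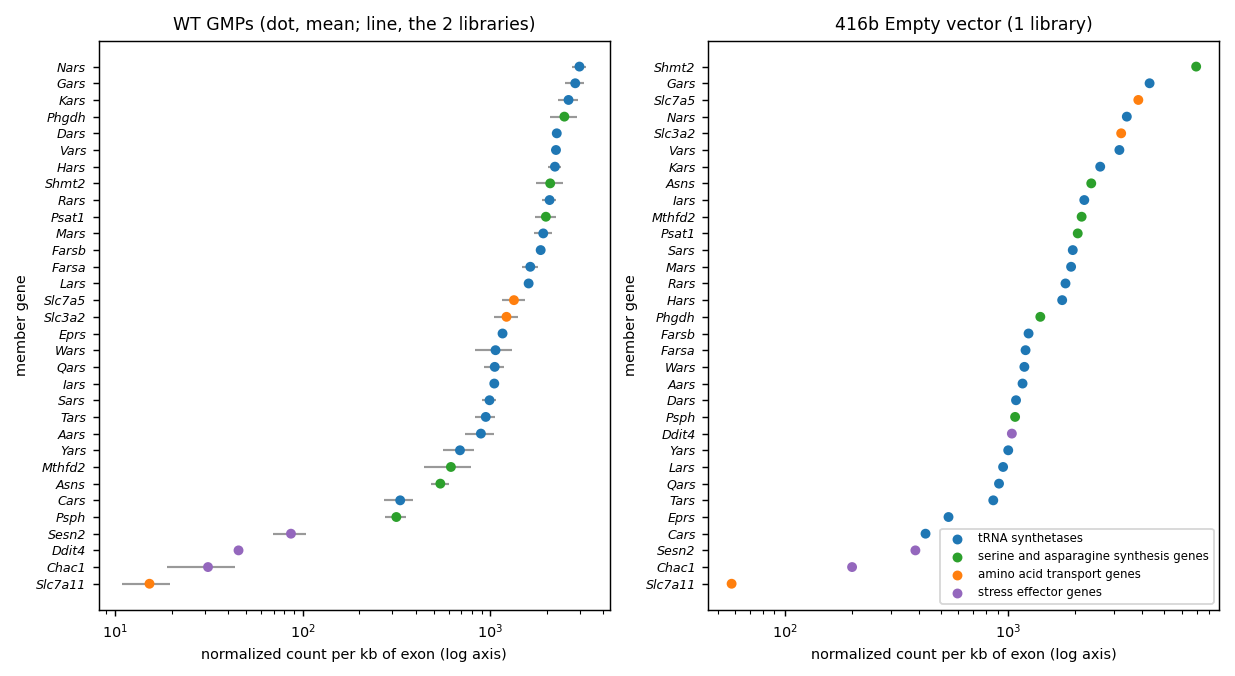
Levels of the 32 members as normalized counts per kb of exon on a log axis, in WT GMPs (dot, mean of 2 libraries; line, their range) and in 416b cells with the Empty vector (1 library). Most synthetases lie in one block in GMPs, between 689 (Yars) and 2988 (Nars) with Cars lower at 331, while Sesn2, Ddit4, Chac1 and Slc7a11 lie below all of them.

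The question for the GMPs was whether these genes differ between Zbtb16lu/lu and WT. Zbtb16 itself had 705 and 828 normalized counts in WT A and WT B and 269 and 369 in Zbtb16lu/lu C and Zbtb16lu/lu D. The genotypes did not overlap, with a log2 fold change of -1.28 (adjusted p = 0.299 in limma, 0.329 in edgeR and 4.39e-05 in DESeq2). The libraries held 37562999 to 40170636 reads, recovered from the normalized counts. GMP markers were present throughout, with Mpo, the granule myeloperoxidase, at 477326 to 552003 normalized counts. Of the 8 GMP markers, 7 had a positive log2 fold change, with a median of 0.13 against -0.01 over all genes tested. Elane had 37949 and 36604 normalized counts in WT against 47604 and 48674 in Zbtb16lu/lu (0.37, adjusted p = 0.428 in limma). The summed level of the 10 mature neutrophil markers was 14171 and 6473 in WT against 21023 and 10501 in Zbtb16lu/lu, in the order above, and all 10 had a positive log2 fold change; Mmp9 was at 0 in WT B. The 6 monocyte markers summed to 42876 and 51879 in WT against 63710 and 60398 in Zbtb16lu/lu. The 4 mast cell and basophil markers summed to 8123 and 8691 in WT against 7897 and 6069 in Zbtb16lu/lu. All 4 had a negative log2 fold change (median -0.30, and -0.29 without WT A), the side on which most members lay. The 5 erythroid markers summed to 213 in WT A and 232 in Zbtb16lu/lu D but to 981 in WT B and 840 in Zbtb16lu/lu C. The 4 megakaryocyte markers summed to 1988, 4262, 2725 and 1545 in the order above. Of these, 4 of 5 erythroid and 3 of 4 megakaryocyte markers also had a negative log2 fold change, with medians of -0.68 and -0.37. Without WT A the 2 medians were -1.07 and -0.56. All 6 monocyte markers, like the neutrophil markers, lay on the higher side. The 3 dendritic cell markers summed to 489, 776, 999 and 780 in the order above, and the 4 B cell markers to at most 21.1. The 4 T and NK cell markers summed to 11721, 11210, 11068 and 11641 in that order. The part of these cells in the results below was not tested, and in bulk RNA fewer cells of a type and less RNA per cell cannot be told apart.

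No member passed the threshold of an adjusted p under 0.08 (Benjamini-Hochberg over the 20531 genes, limma on log2 values), and neither did any other gene (0%). edgeR on the recovered reads also called 0 genes, and DESeq2 called 220 genes (1.07%), of which 0 were members. Before adjustment, 3 members, Iars, Rars and Farsb, had a p under 0.05, all with lower levels in Zbtb16lu/lu, against 4.37% of all genes tested on the lower side and 5.5% on the higher. Most members nevertheless lay on the lower side. Of the 32, 26 had a negative log2 fold change, against 50.9% of all genes tested, with a median of -0.18 against -0.01. Without WT A, 14 of the 32 were lower (51.4% of all genes) and the median was 0.04. In 14 members both Zbtb16lu/lu libraries were below both WT libraries (22.1% of all genes) and in 2, Vars and Ddit4, both were above (21.7%). The calls depended on the WT libraries. Without WT B, 17 members were called, all lower in Zbtb16lu/lu (6.4% of all genes were called in that direction). Without WT A, 4 members were called, Iars lower (10.9%) and Vars, Phgdh and Shmt2 higher (11.8%). In these fits the lone WT library is assumed to vary like the Zbtb16lu/lu pair, whereas over all tested genes the 2 WT libraries differed by a median of 0.28 on the log2 scale and the 2 Zbtb16lu/lu libraries by 0.15.

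Among the synthetases, 18 of 20 were on the lower side (50.9% of all genes), with a median log2 fold change of -0.20 and a range from -0.41 to 0.23. Without WT A, 11 of 20 were lower and the median was -0.08. Iars, which charges isoleucine (chromosome 13 of mm10; its promoter element is shown above), had 5614 and 5463 normalized counts in WT against 4220 and 4116 in Zbtb16lu/lu. The libraries of each genotype were close to each other and the genotypes did not overlap. The log2 fold change was -0.41 ± 0.11 (SE; 95% interval -0.66 to -0.16; adjusted p = 0.387), a level 0.753 of that in WT, and it was -0.39 without WT A. Rars, for arginine, had 7253 and 6117 normalized counts in WT against 5301 and 4973 in Zbtb16lu/lu. Here too the groups stood apart, with a log2 fold change of -0.38 ± 0.12 (adjusted p = 0.433) and -0.25 without WT A. Iars and Rars both belong to the multi-synthetase complex. So do Eprs, Dars, Kars, Qars, Mars and Lars, with smaller log2 fold changes from -0.23 (Eprs) to -0.10 (Lars). The part of the complex was not tested.

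Cars, for cysteine, had 2563 and 1796 normalized counts in WT against 1585 and 1772 in Zbtb16lu/lu, so that WT A stood far above the rest and WT B lay above both mutant libraries. Its log2 fold change of -0.36 ± 0.18 (adjusted p = 0.536) went to -0.10 without WT A. Gars had 9887 and 7815 normalized counts in WT against 7334 and 7050 in Zbtb16lu/lu, a log2 fold change of -0.29 ± 0.13 (adjusted p = 0.518) that went to -0.12. In both genes WT A was the highest library.

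Only Vars and Farsa had a positive log2 fold change among the synthetases. Vars, for valine, had 13252 and 11876 normalized counts in WT against 14480 and 15029 in Zbtb16lu/lu. Both mutant libraries were above both WT libraries, with a log2 fold change of 0.23 ± 0.11 (adjusted p = 0.534), but this turned to -0.11 when offsets for GC content and length were used. Farsa, the catalytic subunit for phenylalanine, had 8176 and 6660 normalized counts in WT against 7781 and 7693 in Zbtb16lu/lu, so the mutant libraries lay between the WT ones (log2 fold change 0.07, adjusted p = 0.876). Its partner subunit Farsb differed from it, with 5012 and 4716 in WT against 4099 and 4013 in Zbtb16lu/lu (log2 fold change -0.26, adjusted p = 0.497, and -0.22 without WT A). The 2 subunits form one enzyme, and their difference in response was not tested.

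The other synthetases lay between these examples. Tars, Wars, Eprs, Nars, Hars, Yars, Dars, Aars, Kars, Qars, Mars, Lars and Sars had log2 fold changes from -0.24 (Tars) to -0.08 (Sars). Without WT A, 7 of these 13 were above 0, from 0.04 for Mars to 0.11 for Aars, with Kars, Qars, Sars, Wars and Yars between. Eprs, which carries the activities for glutamate and proline in 1 chain, had 21435 and 20656 normalized counts in WT against 18107 and 17806 in Zbtb16lu/lu. Dars and Lars were the only members in which WT B was the highest library (32% of all genes). The 10 class I enzymes had a median of -0.21 and the 10 class II enzymes one of -0.20, and without WT A these were -0.03 and -0.08.

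The 6 serine and asparagine synthesis genes were split, with 3 on each side and a median of -0.13. Mthfd2, a mitochondrial enzyme of folate metabolism, had 2749 normalized counts in WT A and 1553 in WT B, and 1542 and 1486 in Zbtb16lu/lu. WT A thus stood far above the other libraries, which were nearly equal. The log2 fold change of -0.45 ± 0.23 (adjusted p = 0.554) was the most negative of all members and went to -0.04 without WT A. Asns had 1644 and 1320 normalized counts in WT against 1272 and 1073 in Zbtb16lu/lu (log2 fold change -0.33 ± 0.16, adjusted p = 0.527). Psat1, which transaminates the intermediate of serine synthesis, had 9517 and 7321 in WT against 7187 and 6696 in Zbtb16lu/lu (-0.27 ± 0.14, adjusted p = 0.562). Asns and Psat1 were among the members without overlap, at -0.18 and -0.08 without WT A.

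The other enzymes of the serine route did not share this side. Phgdh had 7176 and 5168 normalized counts in WT against 6161 and 6489 in Zbtb16lu/lu, a log2 fold change of 0.05 ± 0.16. Shmt2 had 7546 and 5429 in WT against 6660 and 6598 in Zbtb16lu/lu, also 0.05 ± 0.16. For both genes the mutant libraries lay between the WT libraries. Psph, the phosphatase of the last step to serine, had 1544 and 1189 in WT against 1576 and 1180 in Zbtb16lu/lu (0.01 ± 0.18), so that its 2 high and 2 low libraries came one from each genotype. The 3 values were also turned to -0.15, -0.16 and -0.01 by offsets for GC content and length.

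All 3 amino acid transport genes were on the lower side and all overlapped between genotypes, with a median of -0.08. Slc7a5 had 5655 and 4263 normalized counts in WT against 4232 and 4327 in Zbtb16lu/lu (log2 fold change -0.20 ± 0.15, adjusted p = 0.653). Slc3a2 had 4933 and 3678 in WT against 4009 and 4191 in Zbtb16lu/lu (-0.06 ± 0.15, adjusted p = 0.918). Slc7a11 had 273 and 151 in WT against 198 and 187 in Zbtb16lu/lu (-0.08 ± 0.30, adjusted p = 0.941). Each had 1 high library, WT A, and without it the log2 fold changes were 0.01, 0.16 and 0.34.

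The stress effector genes were few in reads. Chac1 had 71.6 and 30.9 normalized counts in WT against 32.1 and 44.2 in Zbtb16lu/lu, so its log2 fold change of -0.31 ± 0.49 (95% interval -1.42 to 0.79, adjusted p = 0.843) included either direction, and it was 0.28 without WT A. Sesn2 had 360 and 242 in WT against 267 and 258 in Zbtb16lu/lu (-0.17 ± 0.23, adjusted p = 0.82), and it was at 0.12 without WT A. Ddit4 went the other way, with 84.5 and 75.2 in WT against 92.3 and 126 in Zbtb16lu/lu (0.43 ± 0.30, adjusted p = 0.633). Its highest value was that of Zbtb16lu/lu D, and without that library the log2 fold change was 0.21.

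**Figure D2:**
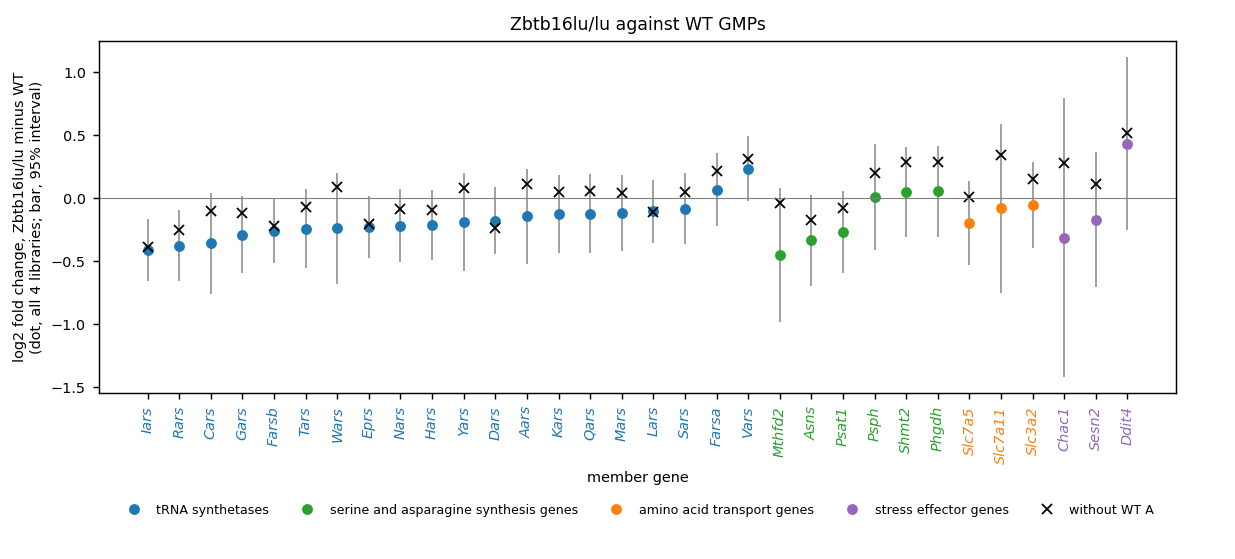
Log2 fold change of each member between Zbtb16lu/lu and WT GMPs on the log2(normalized count + 1) scale, grouped by colour; dots use all 4 libraries (n = 2 per genotype) with 95% intervals as bars, and crosses leave out WT A. Iars keeps its value (-0.41 and -0.39), whereas Mthfd2 goes from -0.45 to -0.04 and Chac1 from -0.31 to 0.28.

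WT A stood apart from the other GMP libraries in most members. It was the highest of the 4 libraries for 27 of the 32 members, against 27.9% of all genes tested: 17 of 20 synthetases, 5 of 6 serine and asparagine synthesis genes, 3 of 3 transport genes and 2 of 3 stress effector genes. The difference between the 2 WT libraries was at least as large as that between the genotypes in 23 of 32 members, against 61.4% of all genes. It was smaller in Iars, Rars, Farsb, Eprs, Dars, Lars, Vars, Asns and Ddit4, of which Vars and Ddit4 were higher in Zbtb16lu/lu. WT A exceeded WT B by a median log2 value of 0.28 over the synthetases, 0.43 over the serine and asparagine synthesis genes, 0.42 over the transport genes and 0.57 over the stress effector genes, against 0.01 over all genes tested. Between single genes it ran from -0.12 for Dars to 1.19 for Chac1, with 0.85 for Slc7a11, 0.82 for Mthfd2, 0.65 for Wars and 0.04 for Iars. Other genes also differed between the WT libraries. Ly6a encodes the Sca-1 that the gate selects against. It had 68.6 normalized counts in WT A and 20.3 in WT B, and 44.2 and 61.7 in Zbtb16lu/lu. The neutrophil markers were higher in WT A than in WT B by a median log2 value of 1.62, but WT A was the highest library for 1 of the 10. Erythroid, megakaryocyte and monocyte markers went the other way between the WT libraries, with medians of -2.31, -1.03 and -0.34. The part of these genes in the difference was not tested. The 2 Zbtb16lu/lu libraries differed far less, by a median of 0.06 over the members regardless of direction, against 0.35 between the WT libraries.

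When the genotypes were compared within the shared date, Zbtb16lu/lu D against WT A, 30 of 32 members were lower, with medians of -0.34 for synthetases, -0.45 for serine and asparagine synthesis genes, -0.39 for transport genes and -0.48 for stress effector genes. In the other pair, Zbtb16lu/lu C against WT B, 15 of 32 were lower and the medians were -0.04, 0.12, 0.12 and 0.14 in the same order. Over all genes tested the medians were -0.0046 and -0.0056. With 1 library on each side these are values with no test. Iars held in both pairs, at -0.45 and -0.37, as did Rars (-0.54 and -0.21), Farsb (-0.32 and -0.20) and Eprs (-0.27 and -0.19). Wars went from -0.58 to 0.10, Aars from -0.39 to 0.10 and Slc7a11 from -0.54 to 0.38. Without WT A, the medians of the serine and asparagine synthesis, transport and stress effector genes were 0.08, 0.16 and 0.28. The difference between the groups was not tested.

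**Figure D3:**
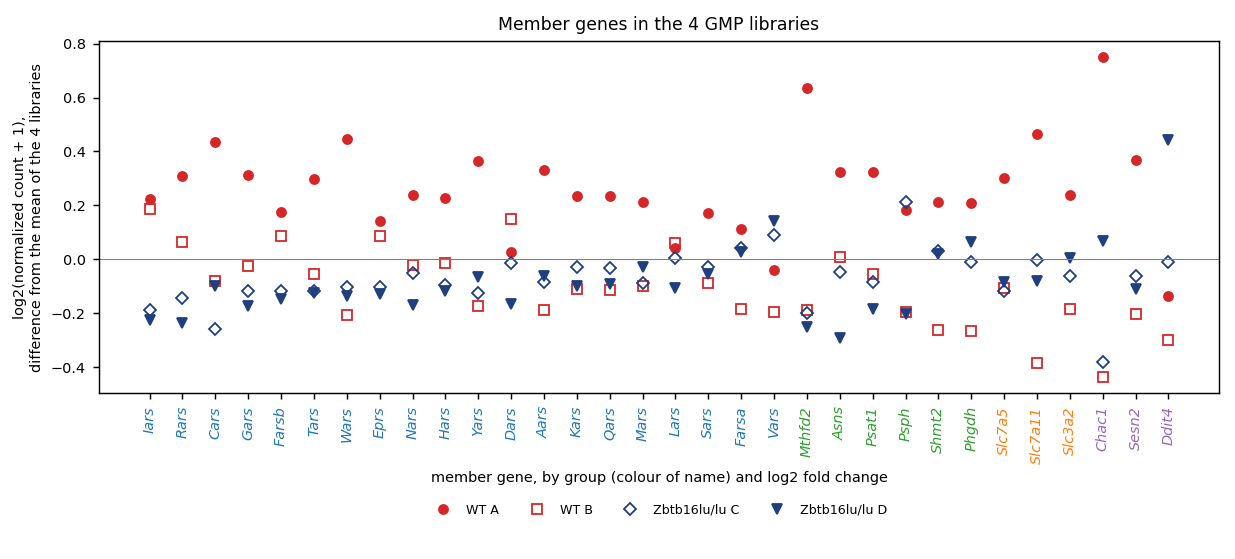
Each member in each GMP library, as log2(normalized count + 1) minus the mean of that gene over the 4 libraries; filled and open red symbols are WT A and WT B, open and filled blue symbols Zbtb16lu/lu C and Zbtb16lu/lu D. WT A is the highest point for 27 of 32 genes, and the gene names are coloured by group as in the other plots.

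The members with and without the response element were compared by the difference between the WT libraries and by the log2 fold change between genotypes. The 8 members whose promoter window holds it had a median difference between the WT libraries of 0.44, and WT A was the highest library in 8 of 8. The 15 members whose window lacks it had a median of 0.35, with WT A highest in 12. Over all tested genes with a window, WT A was highest in 24.1% of those with the element and in 30.3% of those without. The log2 fold changes between genotypes were -0.41 to -0.08 in the 8 members, with 8 of 8 on the lower side, and -0.45 to 0.43 in the 15, with 10 on the lower side. Over all tested genes with a window, 45.6% of those with the element and 49.8% of those without were on the lower side. The 2 sets of members overlap in each of these measures, and no test was made.

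**Figure D4:**
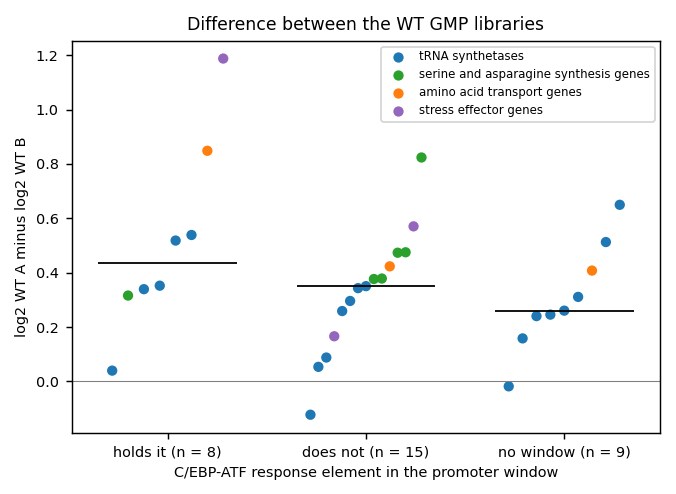
Log2 difference between WT A and WT B for each member (dot, coloured by group; line, median), split by whether the promoter window holds the response element. The medians are 0.44 with the element (n = 8) and 0.35 without (n = 15), the 2 sets overlap, and 9 members had no window.

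Genes around the members gave a mixed picture in GMPs, and none of them passed the threshold in limma or edgeR. DESeq2 called 1, Eef1e1 (adjusted p = 0.0678). Of the 17 mitochondrial synthetases, 8 were on the lower side with a median of 0.03, led by Aars2 (0.34) and Rars2 (-0.33). The 3 scaffold genes of the synthetase complex were all on the lower side. Eef1e1 had 2023 and 1516 normalized counts in WT against 1190 and 1143 in Zbtb16lu/lu, a log2 fold change of -0.59 ± 0.16 (adjusted p = 0.397) that went to -0.38 without WT A. Aimp2 went from -0.18 to 0.10 without that library, and Aimp1 from -0.12 to -0.07. Among the 16 tested regulators of the integrated stress response, 10 were lower with a median of -0.04, and without WT A 8 were lower with a median of 0.00. Cebpb, a C/EBP partner of ATF4, had 360 and 132 normalized counts in WT against 377 and 360 in Zbtb16lu/lu, a log2 fold change of 0.75, and Atf5, a factor related to ATF4, had 385 and 163 in WT against 332 and 343 in Zbtb16lu/lu (0.43). Both were low in WT B alone, and without WT B the log2 fold changes were 0.03 for Cebpb and -0.19 for Atf5. Atf4 mRNA had 9574, 8401, 8132 and 8075 normalized counts in the order above.

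Of the 12 other amino acid transporters 7 were on the lower side in GMPs (median -0.13, and -0.03 without WT A), with Slc1a4, for neutral amino acids, at -0.76 and Slc6a9, for glycine, at 0.50, both from few reads (at most 98.4 and 28.1 normalized counts). Of the 17 tested enzymes of other amino acid, folate and glutathione pathways 12 were lower (median -0.07), but without WT A 7 were lower and the median was 0.03. The values farthest from 0 with all libraries were those of Cth, which makes cysteine (0.95, at most 14.4 normalized counts), and Pycr1, for proline (0.39). Of the sestrin and Ddit4 relatives, Sesn1 was at 0.12 and Sesn3 at 0.01, and both were negative without WT A (-0.08 and -0.15).

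In 416b cells the question was whether added PLZF moves the same genes. Zbtb16 had 382 normalized counts with the Empty vector and 2541 with PLZF-Flag, a log2 ratio of 2.73 that includes any reads from the vector. The libraries held 54529689 and 19995819 reads on the listed genes. Cd34, at 11059 and 8823 normalized counts, and Kit, at 6434 and 7267, were present as the label of the line implies, while Mpo was at 12.1 and 3.3, so this myeloid marker was nearly absent; the megakaryocyte marker Itga2b stood at 22446 and 22145. With 1 library per condition there was no test, and the 95% intervals below are exact binomial (Clopper-Pearson) ones from the recovered reads that cover counting error only.

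No member reached the fold threshold of 0.5 on the log2 scale in either direction, against 2.18% of the 11836 genes above it and 4.06% below it. Taken as PLZF-Flag over Empty vector, the median log2 ratio was 0.01 for the synthetases, -0.07 for the serine and asparagine synthesis genes, -0.02 for the transport genes and 0.21 for the stress effector genes, against 0.00 for all genes. The interval lay above 0 for 9 members (16.1% of all genes) and below 0 for 6 (15.9%), and for 17 it included 0. The members were thus close to equal in the 2 libraries.

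The synthetases with the highest ratios were Farsa, Tars, Hars and Mars. Farsa had 5445 normalized counts with the Empty vector and 5960 with PLZF-Flag (log2 ratio 0.13, 95% interval 0.07 to 0.19). Tars, for threonine, had 5074 and 5502 (0.12), Hars, for histidine, 4284 and 4602 (0.10), and Mars, for methionine, 6570 and 7009 (0.09). All 4 intervals lay above 0. The lowest ratios were those of Eprs, with 9809 and 9039 normalized counts (-0.12, 95% interval -0.16 to -0.07), Lars, for leucine, with 5109 and 4822 (-0.08), Vars with 17717 and 16970 (-0.06) and Dars, for aspartate, with 4739 and 4571 (-0.05, 95% interval -0.12 to 0.01). The interval of Dars included 0 and those of the other 3 did not. Class II synthetases had a median of 0.07, with 8 of 10 ratios above 0, and class I synthetases one of -0.03, with 4 of 10 above 0.

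All 6 serine and asparagine synthesis genes had a ratio below 0 (50% of all genes). Asns had 6463 normalized counts with the Empty vector and 5906 with PLZF-Flag (log2 ratio -0.13, 95% interval -0.19 to -0.08). Phgdh had 3474 and 3219 (-0.11) and Shmt2 21688 and 20219 (-0.10), and these 3 intervals lay below 0. Psph had 4663 and 4541 (-0.04), Psat1 8743 and 8555 (-0.03) and Mthfd2 7461 and 7304 (-0.03), with intervals that included 0.

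The transport genes were level. Slc7a5 had 14242 and 14075 normalized counts (-0.02), Slc3a2 11356 and 11481 (0.02) and Slc7a11 805 and 778 (-0.05), and the 3 intervals included 0. The stress effector genes gave the largest ratios. Ddit4 had 1828 normalized counts with the Empty vector and 2132 with PLZF-Flag (0.22, 95% interval 0.13 to 0.32), and Sesn2 had 1338 and 1545 (0.21, 95% interval 0.10 to 0.32). Chac1 had 328 and 289 (-0.18). Its 542 and 175 reads gave an interval of -0.44 to 0.07, so at this depth no change could be seen.

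**Figure D5:**
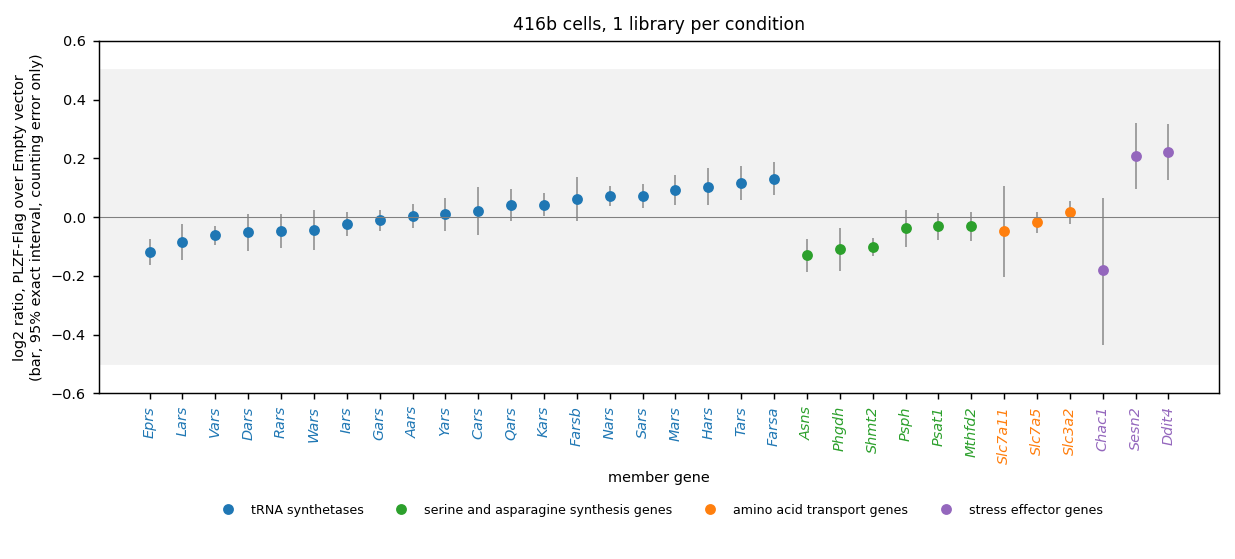
Log2 ratios (PLZF-Flag over Empty vector) of the 32 members in 416b cells, 1 library per condition; bars are 95% exact binomial intervals for counting error only and the grey band marks log2 ratios within 0.5 of 0. All points lie inside the band, between -0.18 (Chac1) and 0.22 (Ddit4).

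Among the related genes in 416b cells, all 12 other amino acid transporters had a ratio below 0, with a median of -0.11 and 7 intervals below 0 (15.9% of all genes). The ratios farthest from 0 were those of Slc7a7, a transporter of basic amino acids, with 182 and 123 normalized counts (-0.56), and Slc1a4 with 2017 and 1781 (-0.18). The 16 regulators of the integrated stress response above the filter had a median of -0.06, with Impact, an inhibitor of Gcn2 activation, at -0.15 and Gcn1l1, which couples Gcn2 to the ribosome, at -0.13. Mitochondrial synthetases had a median of 0.00, led by Lars2 at -0.33 and Wars2 at 0.12. The scaffold genes were at 0.00 to 0.10, Aimp1 (0.10) and Eef1e1 (0.05) being farthest from 0. Of the 13 other enzymes, Pycr1 was at 0.33 and Mthfd2l at 0.12, and of the sestrins Sesn1 was at -0.14 (95% interval -0.20 to -0.07), while Sesn3, with 140 and 68 reads, was at 0.40 with an interval that included 0 (-0.03 to 0.84).

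Side by side, the loss and the gain of PLZF gave for Asns -0.33 in GMPs and -0.13 in 416b cells, for Iars -0.41 and -0.02, for Rars -0.38 and -0.05, for Vars 0.23 and -0.06, and for Ddit4 0.43 and 0.22. None of the 32 passed the threshold in either table, and the tables share no library.

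Some members share exon bases with another gene, and whether strand was used in counting is not given in the sources used here. Aars shares 14.3% of its exon bases with Exosc6 on the same strand. Psph shares 10.4% with Cct6a, Farsb 9.47% with Sgpp2 and Hars 7.97% with Hars2, each on the opposite strand, so their counts are less certain than those of the other members.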

How the data were processed

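RNA was sequenced from GMPs (TruSeq Stranded Total RNA, Ribo-Zero Gold) and 416b cells (SMART-Seq). Per the methods and the submitters' processing notes, the authors aligned reads to mm10 (Subread), counted genes (featureCounts 1.5.0) and divided counts by DESeq2 size factors, and the deposited signal values are these normalized counts. The methods name 3 RNA extractions for GMPs and the table holds 2 libraries per genotype. Columns with the authors' log2 values, fold changes and p-values were not used, nor were the ChIP-seq and ATAC-seq samples.

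Members and lists were chosen with earlier results of these data known. Named are all 32 members, with library values for the non-synthetase members and for up to 4 synthetases with the largest rise and 4 with the largest fall in each table (in GMPs the estimate was above 0 for 2), and 2 genes per related list. Those chosen after their values were seen were Farsb, Eprs and Atf4. GMP values were fitted with limma 3.58.1 (trend) on log2(value + 1) for genes with at least 10 in at least 2 libraries, with Benjamini-Hochberg adjustment and the threshold of 0.08 used by the study; the fold changes of low genes are understated on this scale. The fit was first tested on simulated data. Each value was a whole multiple of the value of 1 read in 100% of GMP cases and in 84.8% (Empty vector) and 85.5% (PLZF-Flag) of 416b cases (tolerance 0.1 of a read; in WT A and Zbtb16lu/lu C, 1 read is worth 0.994 and 1.004, so close to 1 that their low values alone do not show the step), and the reads so recovered went into edgeR 4.0.16 and DESeq2 1.42.0 as alternatives. 416b genes had a mean of at least 10. Permuting 2 against 2 libraries cannot give a two-sided p below 0.333. Exon lengths came from GENCODE M21 and promoters from RefSeq. Intervals cover counting error only. R 4.3.3, Python 3.11.15, scipy 1.17.1 and pandas 2.3.3 were used.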

Additional observations from a re-analysis of the deposited data

How the results depend on the processing

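No paired analysis was possible because the genotypes share only 1 of these dates, and a replicate block needs at least 2. The shared date and the other 2 libraries are given as values with no test. The number of genes past the threshold was 0 in the reported fit and under a pseudocount of 0.1 or 10, a filter at a mean of 100, no filter at all, equal library totals, quantile normalization, offsets for GC content and length, no intensity trend, edgeR and a threshold of 0.05. It was 220 with DESeq2 and 1 to 4662 when a library was left out. The number of members past it was 0 under the same settings and with DESeq2, and 0 to 17 when a library was left out (17 without WT B, 4 without WT A). Without a WT library the spread came from the Zbtb16lu/lu pair alone, whose libraries lay closer together than those of the WT pair.

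Leaving out 1 library at a time gave medians of the log2 fold change from -0.32 to -0.08 for synthetases, -0.32 to 0.08 for serine and asparagine synthesis genes, -0.40 to 0.16 for transport genes and -0.45 to 0.28 for stress effector genes, the highest value in each case without WT A. The 2 libraries of the shared date alone gave -0.45 for the serine and asparagine synthesis genes and -0.39 for the transport genes, and the other 2 libraries gave -0.044 for synthetases and 0.12 for the serine and asparagine synthesis genes. Offsets for GC content and length moved the medians to -0.21 for the serine and asparagine synthesis genes, -0.16 for the transport genes and -0.43 for the stress effector genes. The shift on leaving out a library is set by the difference within that pair of libraries, so its size is no measure of stability. Regardless of direction, the transport genes differed by a median of 0.42 between the WT libraries and 0.06 between the Zbtb16lu/lu libraries. In 416b cells the medians moved by less than their counting intervals. Reading the open position of the element as C gave 6 genes in place of 8. With the length of the longest transcript in place of the exon length, 9 of the 10 members with the highest levels per kb were shared in each table. The order within them changed. In WT GMPs Kars (4822) then stood above Nars (4741), Gars went from place 2 to place 5 and Eprs from place 17 to place 4.

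The direction turned for some members. Over the fits without 1 library the log2 fold changes ran from -0.40 to 0.11 for Aars, -0.080 to 0.22 for Farsa, -0.30 to 0.048 for Kars, -0.27 to 0.039 for Mars, -0.30 to 0.054 for Qars, -0.21 to 0.047 for Sars, -0.56 to 0.085 for Wars, -0.46 to 0.079 for Yars, -0.18 to 0.29 for Phgdh, -0.20 to 0.22 for Psph, -0.19 to 0.29 for Shmt2, -0.91 to 0.28 for Chac1, -0.45 to 0.12 for Sesn2, -0.51 to 0.34 for Slc7a11, -0.40 to 0.0056 for Slc7a5 and -0.27 to 0.16 for Slc3a2. With WT B and Zbtb16lu/lu C alone they were 0.10 for Aars, 0.083 for Kars, 0.010 for Mars, 0.084 for Qars, 0.061 for Sars, 0.10 for Wars, 0.050 for Yars, 0.056 for Chac1, 0.14 for Sesn2, 0.38 for Slc7a11 and 0.12 for Slc3a2, and with the 2 libraries of the shared date alone -0.088 for Farsa, -0.15 for Phgdh, -0.39 for Psph and -0.19 for Shmt2. Offsets for GC content and length gave -0.11 for Vars, -0.15 for Phgdh, -0.014 for Psph, -0.16 for Shmt2 and 0.080 for Slc7a11. The cause was not tested. The depth of 416b PLZF-Flag limits Chac1 and Slc7a11 most.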
